A study of Mus musculus with 12 samples.

Results

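Glutamate and GABA released at synapses are taken up and recycled by a small set of transporters and enzymes, and 8 of their genes were followed here: Slc1a2, Slc1a3, Slc1a1, Slc6a11, Glul, Glud1, Got1 and Got2. They were taken by name from the 41388 gene identifiers of the count files, and all 8 were found and passed the filter on low counts that left 13364 genes. The mice were of strain C57/Bl6 and 21 days old, and the tissue was cortex with hippocampus. Every group came from mice in which Aldh1l1 regulatory sequence on a bacterial artificial chromosome drives the ribosomal protein RPL10a fused to eGFP, so that ribosomes of astrocytes carry the tag. Translating ribosome affinity purification (TRAP) recovers tagged ribosomes and their bound messages by immunoprecipitating eGFP.

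RNA was sequenced in 12 libraries, 3 in each of 4 groups. Cortex input is the RNA before purification from the tissue, and cortex TRAP is the immunoprecipitate of that input. Synaptoneurosome input is a sucrose-gradient layer that holds pinched-off synapses and the membranes around them. PAP TRAP, named for peripheral astrocyte processes, is the immunoprecipitate of that layer. All groups were labelled as treated with 1 ug/mL cycloheximide, a drug that freezes ribosomes in place, and 1 mM TTX, which blocks neuronal sodium channels. The labels do not say how many animals gave each library or whether animals were pooled, so p-values measure the spread between these libraries, which may be technical. An immunoprecipitate from mice without the tag was not analysed here.

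Glutamate is cleared from the synaptic cleft by sodium-coupled transporters, mostly on the astrocyte processes that surround synapses. Within the astrocyte it is turned into glutamine, which is passed back to neurons as the precursor of glutamate and GABA, or it enters the mitochondria and is burned as fuel after losing its amino group. Slc1a2 (GLT-1) and Slc1a3 (GLAST) encode the glial glutamate transporters, Slc6a11 (GAT-3) a GABA transporter of astrocytes, and Glul the glutamine synthetase. Glud1 (glutamate dehydrogenase) and the aspartate aminotransferases Got1 (cytosol) and Got2 (mitochondria) connect glutamate to the citric acid cycle, while Slc1a1 (EAAC1) is the glutamate transporter of neurons.

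Total gene counts per library lay between 4918113 and 17553985. Transcripts of the mitochondrial chromosome took 44.8% to 50.2% of them in cortex input and 1.03% to 1.28% in cortex TRAP. They took 83.8% to 91.9% in synaptoneurosome input and 35.6% to 47.6% in PAP TRAP. Counts of nuclear genes were therefore lowest in synaptoneurosome input, at 1423296 to 2476076. The label gives astrocytes as the cell type of all samples. The 10 astrocyte markers summed to 2.05% to 2.27% of nuclear counts in cortex TRAP, 0.124% to 0.154% in cortex input and 0.312% to 0.373% in synaptoneurosome input, and to 0.409%, 0.810% and 0.501% in PAP TRAP replicates 1 to 3. The 10 neuron markers summed to 2.13% to 2.50% in cortex input, 0.261% to 0.333% in cortex TRAP and 1.76% to 2.17% in synaptoneurosome input, and to 3.03%, 1.96% and 2.66% in the PAP TRAP replicates. The neuron list thus summed to more than the astrocyte list in both inputs and in all 3 PAP TRAP libraries. In PAP TRAP, however, Camk2a alone gave 77.6% of the neuron list's counts, and the sums without it were not computed. PAP TRAP replicate 2 stood apart, with the most astrocyte and the least neuron signal of its group, and synaptoneurosome input replicate 3 had the most nuclear counts of its group.

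Levels below are normalized CPM, the counts of a gene per 1000000 counts of the library after TMM scaling. A gene is called changed where the adjusted p of the edgeR quasi-likelihood test is below 0.05, and changes are log2 values ± SE.

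Slc1a2 lies on the plus strand of chromosome 2 (GRCm38 2:102658659-102790784, 13133 bp of exon sequence in GENCODE M21), Slc1a3 on the minus strand of chromosome 15 (15:8634124-8710764, 8537 bp) and Glul on the plus strand of chromosome 1 (1:153899944-153909723, 3323 bp). These 3 genes were raised in cortex TRAP and in synaptoneurosome input, as Glud1 and Slc6a11 also were. The promoters of the 3 are printed because the results below turn mostly on them. Each runs from 250 bases before to 50 bases after the RefSeq start (GRCm38.p6), 5′ to 3′ on the strand of the gene, at chr2:102706188-102706487, chr15:8710758-8711057 and chr1:153899679-153899978. Capitals mark matches on either strand to GGGCGG, known as the GC box, to TTGGCA, known as the nuclear factor I half-site, or to TATAAA, the usual core of the box named after it.
Slc1a2: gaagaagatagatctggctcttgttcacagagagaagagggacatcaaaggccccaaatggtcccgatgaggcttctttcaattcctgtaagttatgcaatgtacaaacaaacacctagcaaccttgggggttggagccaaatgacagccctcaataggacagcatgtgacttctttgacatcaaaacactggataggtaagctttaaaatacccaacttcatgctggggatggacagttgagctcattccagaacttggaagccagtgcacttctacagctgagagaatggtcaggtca
Slc1a3: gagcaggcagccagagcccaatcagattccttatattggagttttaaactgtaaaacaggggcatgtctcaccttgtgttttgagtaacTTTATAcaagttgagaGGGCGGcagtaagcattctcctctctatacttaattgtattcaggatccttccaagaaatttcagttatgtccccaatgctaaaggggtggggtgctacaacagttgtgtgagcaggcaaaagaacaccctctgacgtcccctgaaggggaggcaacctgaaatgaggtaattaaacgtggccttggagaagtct
Glul: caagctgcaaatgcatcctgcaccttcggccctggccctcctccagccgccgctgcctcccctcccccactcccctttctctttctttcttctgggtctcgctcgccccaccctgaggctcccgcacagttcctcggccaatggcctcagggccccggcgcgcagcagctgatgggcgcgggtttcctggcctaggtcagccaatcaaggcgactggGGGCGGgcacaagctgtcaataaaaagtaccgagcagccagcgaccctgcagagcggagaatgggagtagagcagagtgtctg
The Slc1a2 window held no match to any of the 3 motifs and 1 CpG, against a median of 7 CpG over 32851 mouse promoters of the same length. The Slc1a3 window held 1 TATAAA match on the opposite strand, 1 GGGCGG match and 3 CpG, and the Glul window 1 GGGCGG match and 17 CpG. Over all promoters, 13.6% held TATAAA, 35.7% GGGCGG and 14.1% TTGGCA. The other 5 members had CpG-rich windows, with 18 CpG for Got1, 24 for Got2, 32 each for Slc1a1 and Slc6a11, and 51 for Glud1. The RefSeq start of Slc1a2 lies inside the gene as GENCODE draws it, so other starts of this gene are not covered by the window.

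Slc1a2, which clears most of the glutamate released in the forebrain, was the member with the most counts in every library. It stood at 2086, 2399 and 2589.9 normalized CPM in the 3 cortex inputs and at 16689, 24678 and 27562 in cortex TRAP. In the fraction it stood at 18111, 18199.8 and 17179.5 in synaptoneurosome input and at 20219, 39740.3 and 28242 in PAP TRAP. All 9 libraries other than the cortex inputs lay far above the cortex inputs, and the synaptoneurosome inputs, which had not been immunoprecipitated, already lay within the range of the cortex TRAP libraries. Slc1a2 rose in cortex TRAP over its input by 3.28 ± 0.27 (adjusted p = 2.2e-08) and in synaptoneurosome input over cortex input by 2.92 ± 0.26 (adjusted p = 1.22e-06). In bulk RNA, more cells or processes of a type and more RNA in each cannot be told apart.

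As a share of nuclear counts, Slc1a2 in PAP TRAP (4.12% to 8.01%) overlapped synaptoneurosome input (3.59% to 4.28%). In normalized CPM, the 3 PAP TRAP libraries were all above the 3 synaptoneurosome inputs. The change of 0.72 ± 0.24 did not pass the test (adjusted p = 0.102). That comparison passed with the mitochondrial genes left out (0.84, adjusted p = 0.0252), with no filter on low counts (0.77, adjusted p = 0.00306) and without PAP TRAP replicate 1 (0.94, adjusted p = 0.0272), and was 0.45 without PAP TRAP replicate 2. Between both immunoprecipitates, ranges overlapped: the difference of PAP TRAP from cortex TRAP was 0.36 ± 0.24, with a 95% interval of -0.15 to 0.87 (adjusted p = 0.27). It was 0.080 without PAP TRAP replicate 2. Slc1a2 was the one member for which PAP TRAP and cortex TRAP were not called different.

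Slc1a3, the second glial glutamate transporter, stood at 63.6, 66.0 and 65.5 normalized CPM in cortex input and at 1078, 1106 and 1182 in cortex TRAP. It stood at 262, 386 and 315 in synaptoneurosome input and at 385, 713 and 493 in PAP TRAP. Cortex TRAP was above every other library, and the PAP TRAP and synaptoneurosome input ranges met, because PAP TRAP replicate 1 lay just below synaptoneurosome input replicate 2. Slc1a3 rose by 4.11 ± 0.27 in cortex TRAP over its input (adjusted p = 3.47e-09) and by 2.30 ± 0.25 in synaptoneurosome input over cortex input (adjusted p = 9.25e-06). It was lower in PAP TRAP than in cortex TRAP, with a change of -1.08 ± 0.24 (adjusted p = 0.00191), or -1.35 without PAP TRAP replicate 2. Against synaptoneurosome input the PAP TRAP value was 0.72 ± 0.24 (adjusted p = 0.0949), which passed with the mitochondrial genes left out (0.84, adjusted p = 0.0372) and without PAP TRAP replicate 1 (0.91, adjusted p = 0.0418).

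**Figure D1:**
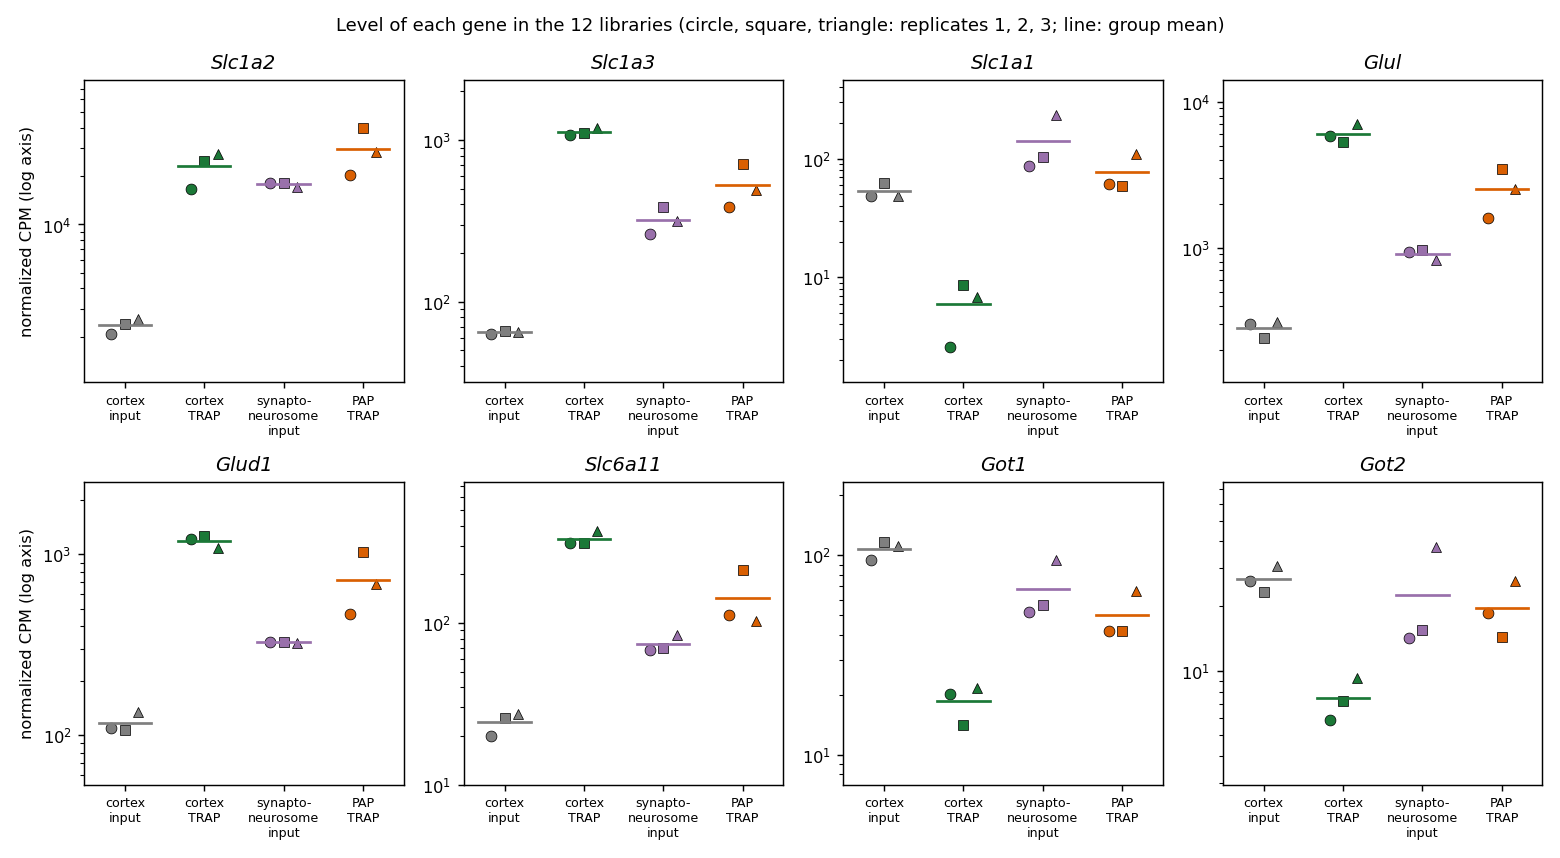
Normalized CPM of each gene (vertical axes, log scale, with a range of their own per panel) in the 12 libraries by group, with circles, squares and triangles for replicates 1, 2 and 3 and a line at the group mean. Slc1a2, Slc1a3, Glul, Glud1 and Slc6a11 are lowest in cortex input, and Slc1a1, Got1 and Got2 are lowest in cortex TRAP; the square of PAP TRAP is the highest of its group for the first set and the triangle for the second.

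The ratio of Slc1a2 to Slc1a3 counts within a library does not depend on library size. It was 32.8, 36.3 and 39.6 in cortex input and 15.5, 22.3 and 23.3 in cortex TRAP. It was 69.1, 47.1 and 54.5 in synaptoneurosome input and 52.6, 55.8 and 57.3 in PAP TRAP. Every library of the fraction, pulled down or not, thus held more Slc1a2 per Slc1a3 than any library of the tissue. The log2 ratio was 1.46 higher in PAP TRAP than in cortex TRAP (SE 0.19, 2.75-fold, n = 3 each, 2-sided exact permutation p = 0.1, the smallest that 3 against 3 can give, or 0.3 adjusted over the 3 ratios tested). The pair was chosen with earlier results of these data known. The ratio of Glul to Slc1a3 lay between 4.77 and 5.96 in cortex TRAP and between 4.12 and 5.12 in PAP TRAP, and these ranges overlapped (log2 difference -0.19, SE 0.13, exact permutation p = 0.3, adjusted p = 0.45).

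**Figure D2:**
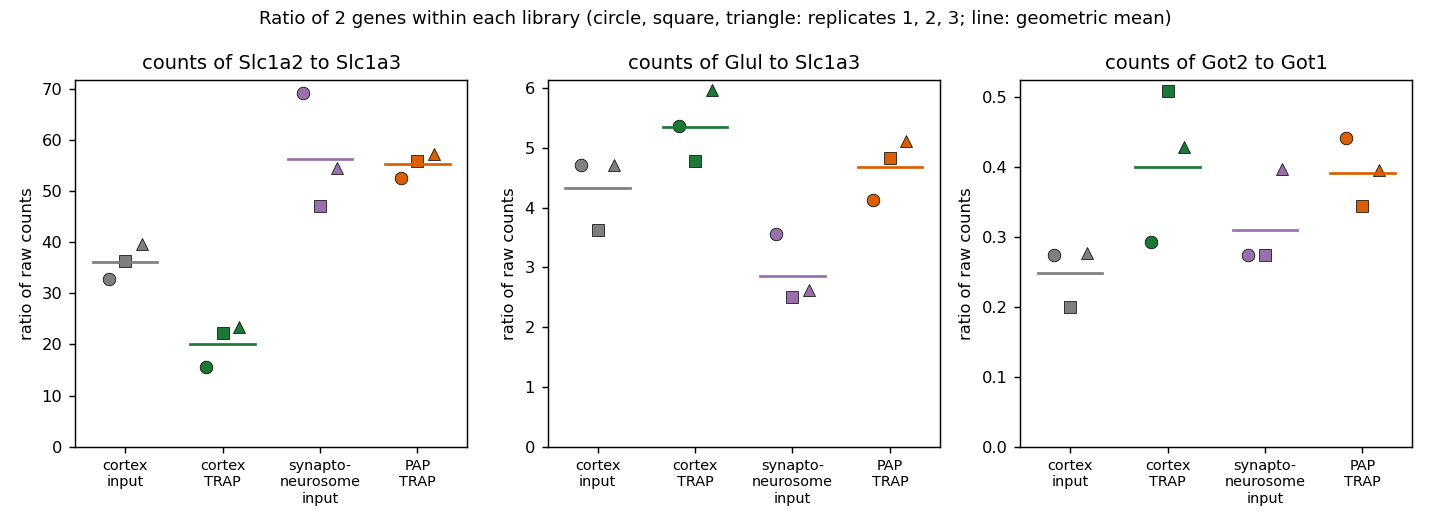
Ratio of raw counts of a pair of genes within each library (vertical axes, from 0) by group, with circles, squares and triangles for replicates 1, 2 and 3 and a line at the geometric mean. The 6 libraries of the synaptoneurosome fraction lie at 47.1 or above for Slc1a2 to Slc1a3, and those of the tissue at 39.6 or below.

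The 3' untranslated regions of the members were searched for hexamers of the kind bound by the RNA-binding protein Quaking, ACTAAC or ACTAAT on the transcript strand. They occurred 4 times in the 9250 bp region of Slc1a2 and 1 time in the 2008 bp region of Slc1a3, and in none of those of the other 6 members, each taken from the longest of the best supported GENCODE transcripts of the gene. Of the regions of 12352 tested genes, 34.07% held at least 1. Length bears on this: of 119 regions about as long as that of Slc1a2, 94.12% held at least 1, with a median of 3, and of 2019 about as long as that of Slc1a3, 46.56% did. Of regions about as long as those of the other 6 members, 18.74% (Got1) to 49.29% (Slc6a11) did. These windows of 30 bases are shown because they are the matches in the only 2 members that have any, with the hexamer in capitals and positions counted from the first base of the region.
Slc1a2, bases 2845 to 2850: tgtgtcacatacACTAACtccaggaaccag
Slc1a2, bases 5599 to 5604: gattgggttcacACTAACactctgaatcat
Slc1a2, bases 8972 to 8977: tggtatttaaagACTAATgaatgcaaagag
Slc1a3, bases 1862 to 1867: gatattttttatACTAACcatttcttacag
Slc1a2 had one more ACTAAT at bases 8990 to 8995, just after the window of the match before it, and its own window is not shown. A match is a description of the letters and not a binding site, and these data hold no measure of Quaking binding.

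Slc6a11, which takes up GABA into astrocytes (GRCm38 6:114131241-114249952, plus strand), stood at 20.0, 25.7 and 27.4 normalized CPM in cortex input and at 313, 313 and 371 in cortex TRAP. It stood at 68.4, 69.9 and 84.0 in synaptoneurosome input and at 112, 213 and 103 in PAP TRAP. The 4 groups did not overlap, and their order was cortex TRAP, PAP TRAP, synaptoneurosome input and cortex input. Slc6a11 rose by 3.77 ± 0.31 in cortex TRAP over its input (adjusted p = 2.55e-08) and by 1.60 ± 0.29 in synaptoneurosome input over cortex input (adjusted p = 0.00116). PAP TRAP was lower than cortex TRAP, with a change of -1.22 ± 0.28 (adjusted p = 0.00232). Against synaptoneurosome input the change was 0.94 ± 0.28 and missed the threshold (adjusted p = 0.0602); it passed with DESeq2 (adjusted p = 0.0345), with the mitochondrial genes left out (0.0274), with no filter (0.0286) and without PAP TRAP replicate 1 (0.0496) or 3 (0.0462), and without replicate 2 it was 0.54 (adjusted p = 0.27).

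Glul, whose product joins ammonia to glutamate to make glutamine, stood at 299.8, 239.7 and 308 normalized CPM in cortex input and at 5788, 5278 and 7047 in cortex TRAP. It stood at 933, 964 and 827 in synaptoneurosome input and at 1586, 3445 and 2522 in PAP TRAP. No group overlapped another, and PAP TRAP spread most, with replicate 2 at 2.17 times replicate 1. Glul rose over input in both purifications, by 4.42 ± 0.29 in the tissue (adjusted p = 3.47e-09) and by 1.47 ± 0.25 in the fraction (adjusted p = 0.00292). The latter was 1.18 (adjusted p = 0.011) without PAP TRAP replicate 2. Glul was also higher in synaptoneurosome input than in cortex input, by 1.68 ± 0.25 (adjusted p = 0.000274), and lower in PAP TRAP than in cortex TRAP, with a change of -1.26 ± 0.25 (adjusted p = 0.000717).

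Glud1, the mitochondrial enzyme that removes the amino group of glutamate (GRCm38 14:34310727-34345265, plus strand), stood at 109.9, 106 and 134 normalized CPM in cortex input and at 1224, 1257 and 1088 in cortex TRAP. It stood at 326, 327 and 323 in synaptoneurosome input and at 465, 1027 and 686 in PAP TRAP. The groups again did not overlap, and the 3 synaptoneurosome inputs were nearly level with each other. Glud1 rose by 3.35 ± 0.27 in cortex TRAP over its input (adjusted p = 2.52e-08), by 1.48 ± 0.26 in synaptoneurosome input over cortex input (adjusted p = 0.0009) and by 1.16 ± 0.25 in PAP TRAP over synaptoneurosome input (adjusted p = 0.0133). The last call was lost without synaptoneurosome input replicate 1 (1.16, adjusted p = 0.0516) or 2 (1.16, 0.0527) and without PAP TRAP replicate 2 (0.83, 0.0605). PAP TRAP was lower than cortex TRAP, with a change of -0.71 ± 0.25 (adjusted p = 0.0345), but this was lost in 10 of 12 fits that left out a library, all but those without synaptoneurosome input replicate 3 or PAP TRAP replicate 2 (adjusted p up to 0.173), in the fit of those groups alone (-0.54, adjusted p = 0.22), without mitochondrial genes (-0.59, 0.066) and with GC-corrected offsets (-0.64, 0.0624).

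Slc1a1, the glutamate transporter of neurons (GRCm38 19:28835049-28913960, plus strand), went the other way. It stood at 48.5, 62.8 and 48.5 normalized CPM in cortex input and at 2.61, 8.54 and 6.75 in cortex TRAP. It stood at 86.0, 104 and 231 in synaptoneurosome input and at 60.8, 58.8 and 110.0 in PAP TRAP. Cortex TRAP was far below every other library, with 46 to 113 counts, whereas the PAP TRAP libraries lay near the level of the inputs. Slc1a1 fell in cortex TRAP against its input, with a change of -3.17 ± 0.44 (adjusted p = 1.39e-05), and PAP TRAP was 3.69 ± 0.45 above cortex TRAP (12.9-fold, adjusted p = 3.6e-06). PAP TRAP and synaptoneurosome input were not called different (-0.87 ± 0.41, adjusted p = 0.233). Slc1a1 was higher in synaptoneurosome input than in cortex input by 1.40 ± 0.41 (adjusted p = 0.0379), a call that was lost without synaptoneurosome input replicate 3 (0.84, adjusted p = 0.235) and without any one of the 3 cortex inputs (adjusted p = 0.0878 to 0.148). Slc1a1 overlaps 2 genes of the opposite strand. They are the protein-coding 4430402I18Rik (0 to 84 counts per library, 73 to 84 in cortex TRAP) and the processed pseudogene Gm5822 (0 to 10). Whether reads were counted by strand is not given in the sources used here. The low cortex TRAP counts of Slc1a1 are therefore uncertain, to an extent that was not tested.

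Got1 and Got2 encode the cytosolic and the mitochondrial aspartate aminotransferase, which pass the amino group between glutamate and aspartate. Got1 (GRCm38 19:43499752-43524605, minus strand) stood at 95.1, 117 and 111 normalized CPM in cortex input and at 20.2, 14.2 and 21.6 in cortex TRAP. It stood at 52.3, 56.7 and 95.3 in synaptoneurosome input and at 41.9, 41.7 and 66.4 in PAP TRAP. Got1 was lowest in all 3 cortex TRAP libraries, and synaptoneurosome input replicate 3 reached into the range of cortex input in normalized CPM. As a share of nuclear counts, synaptoneurosome input (0.0120% to 0.0200%) lay below cortex input (0.0274% to 0.0337%). Got1 fell in cortex TRAP, with a change of -2.53 ± 0.32 (adjusted p = 3.82e-06), and was 1.42 ± 0.31 higher in PAP TRAP than in cortex TRAP (adjusted p = 0.00147). It was not called different between PAP TRAP and synaptoneurosome input (-0.45 ± 0.30, adjusted p = 0.437) or between the inputs (-0.66 ± 0.30, adjusted p = 0.187).

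Got2 (GRCm38 8:95864134-95888547, minus strand) stood at 26.1, 23.3 and 30.8 normalized CPM in cortex input and at 5.89, 7.21 and 9.26 in cortex TRAP. It stood at 14.3, 15.5 and 37.8 in synaptoneurosome input and at 18.5, 14.3 and 26.3 in PAP TRAP. Cortex TRAP was again below all other libraries, and the other 3 groups overlapped, with synaptoneurosome input replicate 3 the highest of all 12 in normalized CPM. As a share of nuclear counts, cortex input replicate 3 (0.00832%) was above synaptoneurosome input replicate 3 (0.00792%). Got2 fell in cortex TRAP, with a change of -1.84 ± 0.43 (adjusted p = 0.00207), and PAP TRAP was 1.40 ± 0.42 above cortex TRAP (adjusted p = 0.0153), or 1.14 (adjusted p = 0.0659) without PAP TRAP replicate 3. Against synaptoneurosome input the PAP TRAP value was -0.20 ± 0.42 (adjusted p = 0.845), and it turned to 0.42 (adjusted p = 0.657) without synaptoneurosome input replicate 3. Between the inputs it was -0.24 ± 0.42 (adjusted p = 0.773), and 0.023 without synaptoneurosome input replicate 1. The Got2 to Got1 ratio lay between 0.292 and 0.509 in cortex TRAP and between 0.343 and 0.441 in PAP TRAP, and its log2 difference of -0.029 had an SE of 0.26 (exact permutation p = 1). The retrocopy Got2-ps1 and the related gene Got1l1 had at most 1 count in any library. Opposite-strand genes that overlap Slc1a2 (Gm13872) and Glul (Teddm2) had at most 12 and 24 counts.

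Set side by side, 5 members (Slc1a2, Slc1a3, Slc6a11, Glul and Glud1) rose and 3 (Slc1a1, Got1 and Got2) fell in cortex TRAP against cortex input, where 35.4% of all genes tested were called, 15.9% as higher and 19.5% as lower. All 8 had ranges apart in that comparison, as did 27.4% of genes above and 27.8% below. The median change of the 8 was 3.32, against 0.05 over all genes. The 5 that rose in this comparison are called astrocyte members or astrocyte genes below. In synaptoneurosome input against cortex input, 6 members rose and none fell, where 9.32% of genes were called, 7.26% as higher and 2.07% as lower. Those 6 also had ranges apart, above cortex input, as did 16.4% of genes, with 20.1% below. The median of the members was 1.54 there, against -0.14 over all genes.

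In PAP TRAP against synaptoneurosome input, only Glul and Glud1 rose and none fell, where 4.53% of genes were called, 3% as higher and 1.53% as lower. In normalized CPM, the members with all PAP TRAP libraries above the inputs were 4 (Slc1a2, Glul, Glud1 and Slc6a11), as were 12.2% of genes. On that scale 9.39% of genes, and no member, lay below. As a share of nuclear counts, Slc1a2 overlapped. In PAP TRAP against cortex TRAP, 3 members rose and 4 fell, where 33.9% of genes were called, 19.3% as higher and 14.6% as lower. Those 7 had ranges apart in the same directions, as did 22.2% of genes above and 26.1% below. The median of the members was 0.72 in the former comparison and -0.18 in the latter, against 0.06 and -0.28 over all genes. These comparisons share libraries with each other, so their values are not independent.

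**Figure D3:**
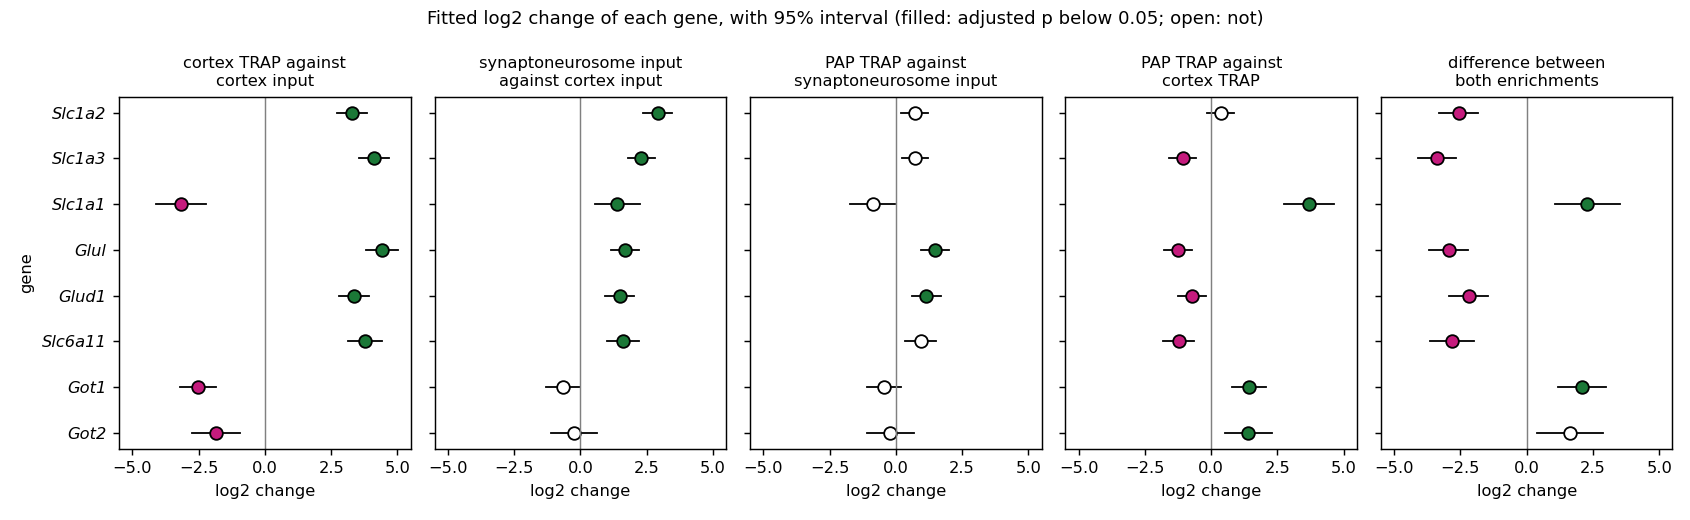
Fitted log2 change of each gene (horizontal axes) in the 5 comparisons, with 95% intervals as bars and filled points where the adjusted p is below 0.05. The 5 astrocyte genes lie to the right of 0 in the first and second panels and, except for Slc1a2, to the left in the fourth, where Slc1a1, Got1 and Got2 lie to the right.

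The last comparison asked whether a gene was enriched over its own input to a different degree in the fraction than in the tissue. All 5 astrocyte members were enriched less in the fraction. Of all genes, 20.2% were called in either direction, 12.9% as higher and 7.32% as lower. These 5 are the members that rose in cortex TRAP over cortex input, and the difference subtracts that rise. A set formed in this way leans towards lower values. The difference of log2 enrichments was -3.39 ± 0.35 for Slc1a3 (adjusted p = 1.86e-06), the farthest from 0, and -2.19 ± 0.36 for Glud1 (adjusted p = 0.000201), the nearest. Slc1a1 and Got1 differed in the other direction, by 2.29 ± 0.58 (adjusted p = 0.00831) and 2.08 ± 0.43 (adjusted p = 0.00175). Got2 was at 1.64 ± 0.59 (adjusted p = 0.0575), which passed with DESeq2 (1.60, adjusted p = 0.0302), with the mitochondrial genes left out (1.76, 0.0397) and without cortex TRAP replicate 3 (1.99, 0.0297), synaptoneurosome input replicate 3 (2.27, 0.00882) or PAP TRAP replicate 2 (1.83, 0.038).

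Cell type markers moved beside the members. In cortex TRAP against its input, 10 of 10 astrocyte markers rose (median 4.02) and 10 of 10 neuron markers fell (median -3.18). In PAP TRAP against cortex TRAP, 10 of 10 astrocyte markers fell (median -1.61), 9 of 10 neuron markers rose (median 2.68), and 6 of 8 oligodendrocyte markers (median 2.84), 4 of 4 oligodendrocyte precursor markers (median 3.67) and 6 of 8 microglia markers (median 3.22) rose. In synaptoneurosome input against cortex input, 7 of 10 astrocyte markers rose (median 1.57), 2 neuron markers rose and 1 fell, and 6 of 8 microglia markers rose (median 2.74). Microglia markers summed to 0.0125% to 0.0157% of nuclear counts in cortex input, 0.00220% to 0.00350% in cortex TRAP, 0.0586% to 0.126% in synaptoneurosome input and 0.0243% to 0.0359% in PAP TRAP. Precursor markers summed to 0.0105% to 0.0164%, 0.00230% to 0.00345%, 0.0224% to 0.0254% and 0.0161% to 0.0262% in the same order. Oligodendrocyte markers summed to 0.410% to 0.444%, 0.0601% to 0.0896%, 0.546% to 0.744% and 0.787% to 1.05%, again in that order. Their sum was above that of the astrocyte markers in both inputs and in PAP TRAP replicates 1 and 3. Ependymal and choroid plexus markers summed to 0.00496% to 0.00898%, 0.0296% to 0.0903%, 0.00380% to 0.0214% and 0.00168% to 0.00701%. Against synaptoneurosome input, 3 of 10 astrocyte markers rose in PAP TRAP, while 1 neuron marker rose and 2 fell. In PAP TRAP, Camk2a, whose mRNA is known to travel into dendrites, made up 77.6% of the neuron list's counts, and Mbp, whose mRNA travels into oligodendrocyte processes, 62.9% of the oligodendrocyte list's. The defining neuron markers Snap25 and Syt1 had 8287 to 13417 and 7752 to 11244 counts in the PAP TRAP libraries. In cortex TRAP they had 10752 to 16328 and 1195 to 2180 counts. In normalized CPM, Snap25 overlapped between cortex TRAP (666 to 976) and PAP TRAP (685 to 1043). Syt1 did not, at 77.4 to 130 in cortex TRAP and 641 to 913 in PAP TRAP. The endothelial marker Cldn5 was at 0 in 11 of the 12 libraries, all inputs included. The list of 6 endothelial and pericyte markers, mostly Rgs5 in PAP TRAP, summed to 0.00463% to 0.0112% of nuclear counts there and to 0.00461% to 0.00755% in cortex input. The part of the markers in the members' changes was not tested.

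**Figure D4:**
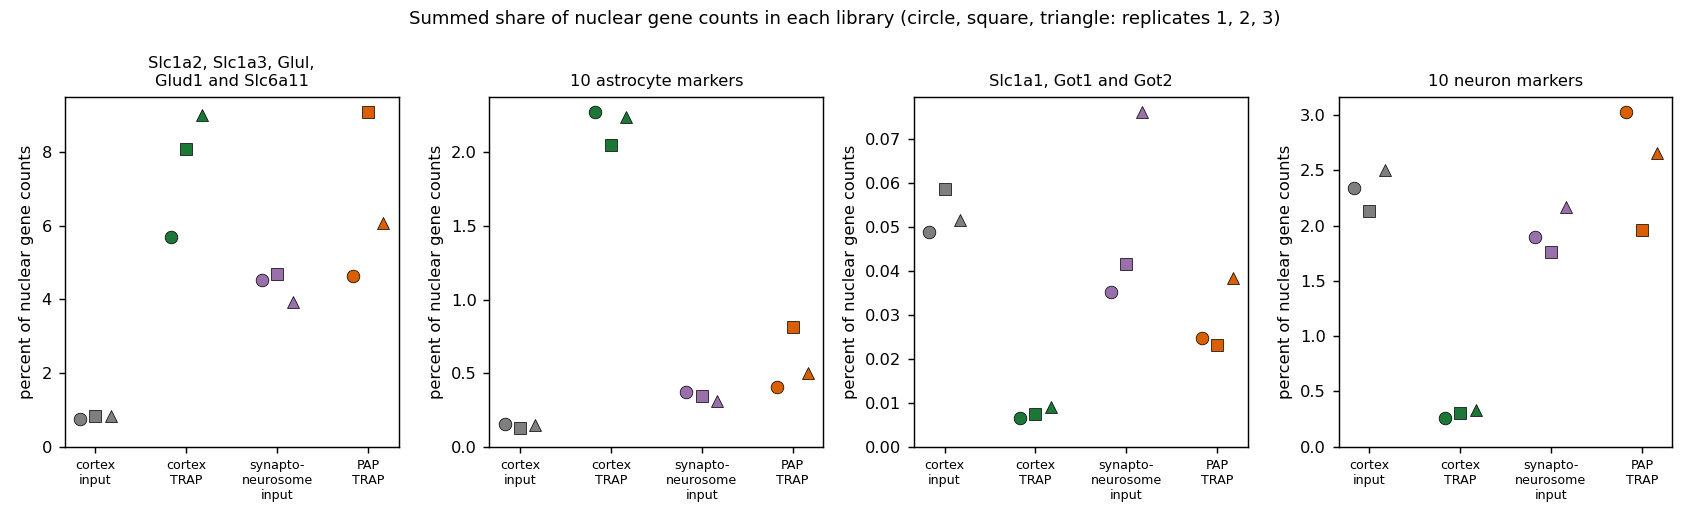
Summed share of nuclear gene counts (vertical axes, percent, from 0) in each library for the 5 astrocyte members, the 10 astrocyte markers, the 3 other members and the 10 neuron markers, with circles, squares and triangles for replicates 1, 2 and 3. PAP TRAP replicate 2 is the highest of its group for the astrocyte members (9.09%) and markers (0.810%) and the lowest for the neuron markers (1.96%).

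Per 100 counts of the 10 astrocyte markers, Slc1a2 had 389 to 561 counts in cortex input, 167 to 298 in cortex TRAP, 1117 to 1251 in synaptoneurosome input and 989 to 1070 in PAP TRAP. On this scale the 3 PAP TRAP libraries were close to each other, and the groups did not overlap. Slc1a3 had 10.8 to 13.4 in cortex TRAP and 17.7 to 19.2 in PAP TRAP, Glul 57.8 to 76.2 and 79.0 to 95.5, and Glud1 11.8 to 15.2 and 23.2 to 26.0. For these 4 genes PAP TRAP thus lay above cortex TRAP per astrocyte marker count. In normalized CPM, Slc1a3, Glul and Glud1 were lower there. The marker sum itself was 2.05% to 2.27% of nuclear counts in cortex TRAP and 0.409% to 0.810% in PAP TRAP. A gene of equal share in both groups would therefore also lie above on this scale. The share of all genes that did so was not computed. Slc6a11 had 3.13 to 4.01 in cortex TRAP and 3.90 to 5.56 in PAP TRAP, which overlapped. Against synaptoneurosome input, PAP TRAP was higher for Glul (55.4 to 66.2 in the input) and Glud1 (20.1 to 22.5) and lower for Slc1a2. The markers differ among themselves (their changes from cortex TRAP to PAP TRAP ran from -2.85 to -0.89), so the scale depends on which markers it holds. Its leading marker also differed, being Atp1b2 in synaptoneurosome input (45.1% of the list's counts) and Aldoc in PAP TRAP (42.2%).

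**Figure D5:**
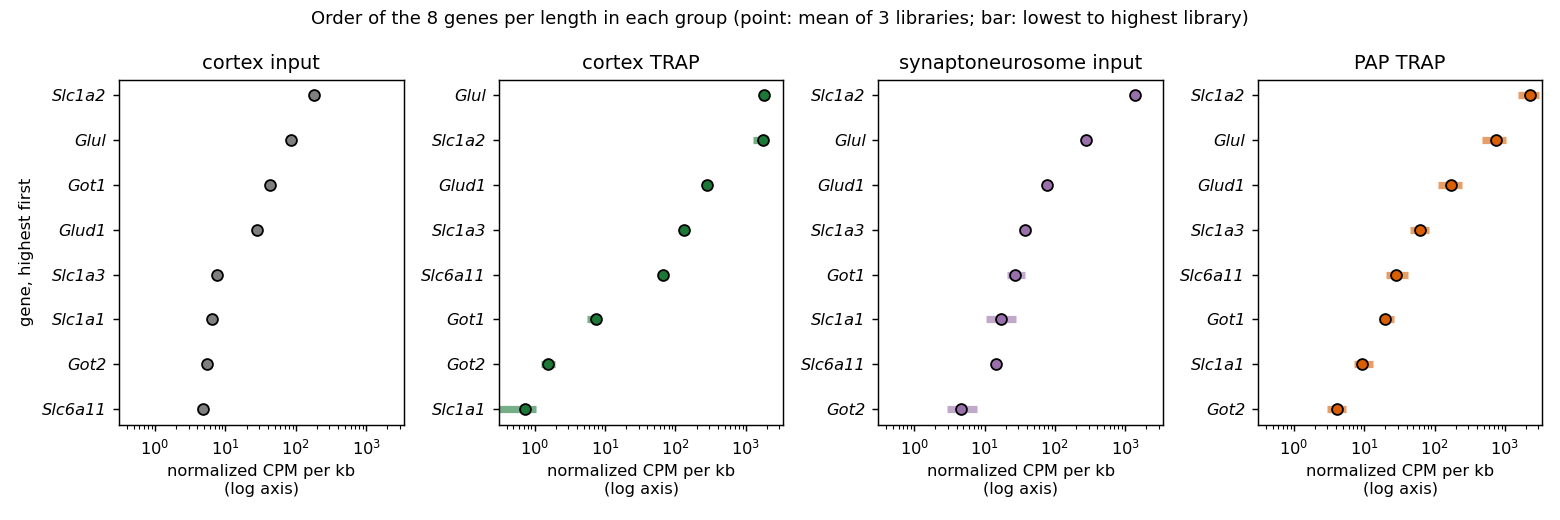
Mean normalized CPM per kilobase of exon sequence (horizontal axes, log scale) of the 8 genes in each group, highest first, with bars from the lowest to the highest of 3 libraries. Glul and Slc1a2 share the top of cortex TRAP, and Slc1a2 alone leads the other groups.

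The order of the genes within a group was taken per length, as normalized CPM per kilobase of exon sequence. In cortex TRAP, Glul (1817 ± 274, SD, n = 3) and Slc1a2 (1750 ± 429) did not differ beyond their spread, and were followed by Glud1 (283 ± 21.4), Slc1a3 (131 ± 6.30), Slc6a11 (65.8 ± 6.64), Got1 (7.35 ± 1.55), Got2 (1.55 ± 0.352) and Slc1a1 (0.723 ± 0.369), all apart from their neighbours. In PAP TRAP, Slc1a2 (2239 ± 747) was above Glul (758 ± 280), Glud1 (172 ± 67.3) and Slc1a3 (62.1 ± 19.6), and neighbours in that order did not overlap. Slc6a11 (28.2 ± 12.2) and Got1 (19.7 ± 5.58) overlapped there, and Slc1a1 (9.27 ± 3.51) and Got2 (4.08 ± 1.26) came last. In synaptoneurosome input the top of the order was the same, with Slc1a2 (1358 ± 43.0), Glul (273 ± 21.5) and Glud1 (77.3 ± 0.466), and Slc1a3, Got1 and Slc1a1 each overlapped the next, while Slc6a11 and Got2 were apart. In cortex input, Got1 (42.4 ± 4.40) came after Slc1a2 (180 ± 19.4) and Glul (85.0 ± 11.2) but above Glud1 (27.7 ± 3.55), and neighbours among the last 4 (Slc1a3, Slc1a1, Got2 and Slc6a11, means 7.62 to 4.83) overlapped.

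The 8 members together took 0.790% to 0.896% of nuclear counts in cortex input, 5.70% to 9.02% in cortex TRAP, 4.0% to 4.73% in synaptoneurosome input, and 4.66%, 9.12% and 6.12% in PAP TRAP replicates 1 to 3. Slc1a2 alone gave 66.4% to 75.6% of the members' counts in cortex TRAP, 87.6% to 88.3% in PAP TRAP, 90.0% to 91.2% in synaptoneurosome input and 75.9% to 78.9% in cortex input. The group ranges of this share did not overlap between the fraction and the tissue. It is a share of reads, so the long Slc1a2 transcript weighs more in it than the short ones.

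Of 28 other genes of glutamate, glutamine and GABA handling, 25 passed the filter; Slc17a7, Gad1 and Gad2 among them are also in the neuron marker list. In cortex TRAP against its input, 8 of the 25 rose and 12 fell (median -1.01), beside 15.9% and 19.5% of all genes tested. Slc38a3, which exports glutamine from astrocytes, rose by 5.30 ± 0.62, whereas Slc17a7, which loads glutamate into synaptic vesicles, changed by -3.56 ± 0.28 and Gad2, a GABA-making enzyme, by -4.38 ± 0.42. In synaptoneurosome input against cortex input, 6 rose and none fell (median 0.48), beside 7.26% and 2.07% of all genes. Those that rose included Aldh5a1, which encodes an enzyme of the GABA breakdown pathway (1.31 ± 0.24).

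In PAP TRAP against synaptoneurosome input, none of the 25 passed the edgeR test (median 0.13), beside 4.53% of all genes, with 4 at an unadjusted p below 0.05 and 2 called by DESeq2: Abat, the GABA transaminase (1.04, adjusted p = 0.0414) and Gad2 (-1.25, adjusted p = 0.0359). In PAP TRAP against cortex TRAP, 9 rose and 5 fell (median 0.80), beside 19.3% and 14.6% of all genes. Slc17a7 rose by 4.04 ± 0.29 and the neuronal glutamine transporter Slc38a1 by 2.55 ± 0.27, while Slc25a18, a mitochondrial glutamate carrier, changed by -2.26 ± 0.52 and Slc1a4, a neutral amino acid transporter, by -0.93 ± 0.30. In the difference of both enrichments, 7 were higher and 6 lower (median 1.20), beside 12.9% and 7.32% of all genes, with Slc17a7 (3.27 ± 0.37) and Gad1 (3.18 ± 0.45) among the former and Slc25a18 (-4.24 ± 0.76) among the latter.

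Across the 12 libraries, which differ mostly by group, the genes with a level pattern most like that of a member were sought among 5951 well expressed genes by Pearson's r of log2 normalized CPM, given as a description over 12 libraries. For Slc1a2 they were Paqr8 (0.995), the membrane glycoprotein gene Gpm6b (0.990) and Prex2 (0.987). For Slc1a3 they were Ttyh1 (0.996), the bicarbonate transporter Slc4a4 (0.992) and the lipid carrier Apoe (0.991), and for Slc6a11 Apoe (0.989), S100b (0.986) and Cst3 (0.985). For Glul they were the glycolytic enzyme Aldoc (0.993), the protease inhibitor Cst3 (0.992) and Zcchc24 (0.990), and for Glud1 S100b (0.995), Scrg1 (0.992) and Fgf1 (0.991). For Slc1a1 they included Sorcs1 (0.984) and Gpr158 (0.981), and they were for Got1 Rgs4 (0.983), Mef2c (0.975) and Scai (0.974), and for Got2 Enc1 (0.967), Gm38393 (0.957) and Tcaf1 (0.956).

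Among the members themselves, r over the 12 libraries was 0.976 to 0.990 between any 2 of Slc1a3, Glul, Glud1 and Slc6a11. Slc1a2 was less like these 4, from 0.845 with Glul to 0.910 with Slc1a3. Got1 and Got2 were at 0.928, and Slc1a1 was at 0.781 with Got1 and 0.850 with Got2. Got1 was at -0.905 with Glul, the opposite pattern.

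The 5 astrocyte members shared their highest library within PAP TRAP, replicate 2, at 1.85 to 2.21 times the lowest. The lowest was replicate 3 for Slc6a11 and replicate 1 for the others. Replicate 2 had 52.9% of its reads in rows of no gene, against 35.6% in replicate 1 and 35.7% in replicate 3. Slc1a1, Got1 and Got2 were instead highest in replicate 3, in PAP TRAP and in synaptoneurosome input alike, at 1.59 to 1.87 times the lowest in the former and 1.82 to 2.68 times in the latter. Replicates have no order, and the cause of these library differences was not tested.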

How the data were processed

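Per the labels' protocols, SPIA, an isothermal method, amplified cDNA from 2 ng RNA, and no molecular identifiers are named. The deposited files hold counts per gene, whole numbers that the authors left unnormalized, as judged from the values, plus rows for reads of no gene (20.3% to 55.5% per library, left out). The submitters' processing notes name Trimmomatic 0.32, Bowtie2, STAR and HTSeq, without their order. Genome build, annotation and strand handling were not given in the sources used here.

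Symbols were matched by identifier (40254 of 41388). Coordinates and lengths came from GENCODE M21 (GRCm38), promoters from RefSeq (all 8 members matched). One fit held the 12 libraries, with a mean for each group, by the edgeR 4.0.16 quasi-likelihood test (R 4.3.3, TMM scaling with factors of 0.191 to 2.46, filterByExpr with minimum count 10), Benjamini-Hochberg adjusted over 13364 genes. The code was tested on simulated data. Members and lists were chosen with earlier results of these data known. All 8 members are described. Of the 28 further pathway genes, those with the smallest p (at most 2 in each direction) are named per comparison, and the 3 most similar genes per member by r (mean log2 CPM at least 3). Some genes that these rules name are not reported here. Abat was named after its value was seen. Alternatives were RLE scaling, no filter, DESeq2 1.42.0, a fit of only the groups compared, a replicate-number block, no mitochondrial genes, GC-corrected offsets with and without that block, and each library left out.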

Additional observations from a re-analysis of the deposited data

Results flagged for a closer look

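The enrichment over input differed between the fraction and the tissue for 7 of the 8 genes by the interaction term of the edgeR fit (log2 enrichment in the fraction minus that in the tissue, 3 libraries per group). It was lower in the fraction for Slc1a3 (-3.39), Glul (-2.95), Slc6a11 (-2.83), Slc1a2 (-2.56) and Glud1 (-2.19), and higher for Slc1a1 (2.29) and Got1 (2.08). Over all genes tested, 20.2% were called by this term, 12.9% as higher and 7.32% as lower. Of the markers, 10 of 10 for astrocytes were called lower and 9 of 10 for neurons higher. For the 5 astrocyte genes, the input of the fraction was itself above the input of the tissue, by 1.48 (Glud1) to 2.92 (Slc1a2). The part that markers of other cells take in these differences was not tested.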

How the results depend on the processing

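Over 792 alternative values for the 40 log2 changes of the members, 752 kept direction and side of the threshold, 21 lost the call, 17 gained it and 2 turned sign; 30 of the changes were the same throughout. The 2 that turned were both of Got2: between the inputs it ranged from -0.84 (without synaptoneurosome input replicate 3) to 0.023 (without synaptoneurosome input replicate 1), and in PAP TRAP against synaptoneurosome input from -0.46 to 0.42 (without synaptoneurosome input replicate 3). The log2 Got2 to Got1 difference ranged from -0.25 to 0.15 with a library left out and turned sign without PAP TRAP replicate 2 (0.066) and without cortex TRAP replicate 2 (0.15) or 3 (0.022). The cause of these changes was not tested.

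Counts of calls moved most in PAP TRAP against synaptoneurosome input. Of the members, 2 were called as reported, 4 with no filter, 5 without mitochondrial genes, and 1 to 5 with a library left out (1 without synaptoneurosome input replicate 1 or 2 or PAP TRAP replicate 2, and 5 without PAP TRAP replicate 1). Over all genes, 605 were called as reported, 1349 with DESeq2, 304 with GC-corrected offsets, 384 with those and the replicate block, and 292 to 740 with a library left out. In synaptoneurosome input against cortex input the count was 1246 as reported, 2091 with DESeq2, 2251 with the compared groups alone, and 608 to 1393 with a library left out.

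The share of calls that were higher in PAP TRAP than in synaptoneurosome input was 66.3% as reported, 79.1% without mitochondrial genes, 54.3% with GC-corrected offsets and 53.1% with DESeq2. In synaptoneurosome input against cortex input it was 77.8% as reported and 91.0% with GC-corrected offsets. Without mitochondrial genes the median of all genes moved from 0.06 to 0.17 in the former comparison and from -0.28 to -0.11 in PAP TRAP against cortex TRAP.

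Replicate numbers are shared by the groups. The labels do not say whether equal numbers mark one preparation, so the main fit did not pair libraries. Libraries of the same number deviated together weakly, with every r positive (0.00575 to 0.0804, against -0.0697 to 0.0551 for other numbers). In 16 of 18 cases a library was most like the one of its own number, a hint of pairing that was not tested. With the replicate number as a block, 4770, 1358, 653, 4564 and 2726 genes were called in the 5 comparisons, against 4737, 1246, 605, 4526 and 2699, and the only member call that changed was the Got2 difference of enrichments, which passed (1.74, adjusted p = 0.0254), as it did with GC-corrected offsets and the block (1.62, adjusted p = 0.0367). The synaptoneurosome inputs, with 1423296 to 2476076 nuclear counts, limit the comparisons that use them: Got2 had 47 to 196 counts there.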
